A study of Arabidopsis thaliana with 6 samples.

Results

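The light signalling factors described here are 10 Arabidopsis loci: the bZIP transcription factors *HY5* and *HYH*, the phytochrome-interacting bHLH factors *PIF1*, *PIF3*, *PIF4*, *PIF5* and *PIF7*, the related bHLH factor *HFR1*, and the ubiquitin ligase components *COP1* and *SPA1*. They were taken by locus from the 25410 genes that could be named on the array, by a rule with no threshold on the measured values but written with earlier results of these data known. They were represented by 15 of its 43603 probes. *HY5* is AT5G11260 and *HYH* is AT3G17609. The PIF loci, in the order above, are AT2G20180, AT1G09530, AT2G43010, AT3G59060 and AT5G61270. *HFR1* is AT1G02340, *COP1* is AT2G32950 and *SPA1* is AT2G46340.

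RNA came from guard cell protoplasts (GCPs), which are guard cells freed of their walls by enzymes, and was hybridized in a single colour to 6 Agilent oligo arrays, 3 for each group. SS plants had grown for 5 weeks under short days of 8 h light and 16 h dark at 100 µmol m-2 s-1, and SL plants for 3 weeks under those short days and then 2 weeks under long days of 16 h light and 8 h dark at 41 µmol m-2 s-1. All plants carried the recessive *gl1* allele in the Columbia ecotype, and replicates 1 to 3 of both groups came from 3 independent batches of plants. The sample labels give isolation at ZT8 (zeitgeber time, hours after lights on) for SS and at ZT16 for SL, each the end of the light period. At ZT16, which the text of the study names for both groups, SS plants were in darkness. Day length, light intensity and, by the labels, isolation time changed together, so their parts in any difference cannot be told apart.

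Light reaches these genes through photoreceptors. In darkness COP1, a RING-type E3 ubiquitin ligase that works with SPA proteins, marks HY5, HYH and HFR1 for degradation, and light-activated phytochromes and cryptochromes inhibit it so that these proteins accumulate. PIF proteins build up in darkness or shade and are degraded or inactivated when phytochrome is in its active form, which sets their growth-promoting targets against those of HY5. Much of this control acts on protein stability, which arrays do not measure. In guard cells COP1 is known as a repressor of stomatal opening, since *cop1* mutants keep their stomata open in the dark.

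Guard cell markers were present in all libraries. All 9 guard cell markers (among them *MYB60*, *KAT1*, *SLAC1*, *OST1* and *HT1*) were well above background on all 6 arrays. Limma called 0 of them as different between SS and SL, with or without the replicate number as a block. Of the 9, 3 (*MYB60*, *TGG1* and *BLUS1*) were lower in SL in each batch and 0 were higher in each. Over all genes these shares were 24.4% and 24.6%. *MYB60* had a log2 fold change of -0.38 (adjusted p = 0.0947 with the block). The summed signal of the 9 was 113780 to 207210 in SS and 113220 to 158530 in SL. Photosynthesis genes that are abundant in mesophyll were also present on every array. Their summed signal was 115060 to 248620 in SS and 58861 to 121110 in SL, and 8 of 10 were called as lower in SL in the fit with the block (0 of 10 without it), as were 3.14% of all genes. The other 2, *CA1* (log2 fold change 0.35, adjusted p = 0.0724 with the block) and *GLDP1* (0.25, adjusted p = 0.213), were higher in SL in each batch. The summed signal of 4 epidermis markers was 25797 to 45192 in SS and 23991 to 33547 in SL, and that of 3 phloem companion cell markers was 1439 to 2043 in SS and 1092 to 1478 in SL. None of these 7 markers was called without the block. With it, the phloem gene *AHA3* was called as lower in SL (log2 fold change -0.55, adjusted p = 0.0396, against 1 without the block). *PP2-A1*, also of the phloem, was lower in each batch (-0.57, adjusted p = 0.111), whereas *SUC2* was higher in each (0.09, adjusted p = 0.549). The 4 epidermis markers had log2 fold changes of -0.46 to -0.21, and 3 of them were lower in each batch. The part of these other cell types in the results below was not tested. In such bulk samples, fewer cells of a type and less RNA per cell cannot be told apart.

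All 10 genes gave a signal above background in GCPs. Of the 15 probes, 14 were well above background by the scanner's flag on all 6 arrays, some of them by a small margin, and the exception was a second *PIF3* probe, which met this on 1 array only (normalized signal 80.5 to 92.9) and entered no test. Signals are given as normalized linear intensity of a gene's brightest probe. Probes differ in affinity, so they are compared between samples and not between genes.

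*HY5*, which activates genes of light-grown development, had a normalized signal of 384, 454 and 643 in SS replicates 1 to 3 and of 256, 420.2 and 386 in SL replicates 1 to 3. SL was below SS in every batch, although the groups overlapped because batch 1 was low in both. Means were 494 ± 134 in SS and 354 ± 86.7 in SL (SD, n = 3), and the SL/SS ratios of the batches were 0.666, 0.925 and 0.600. The log2 fold change was -0.48 ± 0.27 (SE), with an adjusted p of 1 in limma over all probes. With the replicate block the SE was 0.13, the 95% interval ran from -0.80 to -0.15 and the adjusted p was 0.103. Leaving out SS replicate 3 gave -0.27 and leaving out SL replicate 1 gave -0.26. It was larger, at -0.64, without SS replicate 1 and, at -0.62, without SL replicate 2. Processed intensities set to a common 75th percentile gave -0.69, with an adjusted p of 0.0691 with the block. Taken alone, the interval with the block left out 0, but *HY5* did not pass the adjustment over all probes.

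*HYH*, the closest homologue of *HY5*, was likewise lower in SL in each batch. Its signal was 1637, 3470.3 and 3421 in SS and 1359, 3239 and 2195 in SL. Batch 1 was low in both groups, and the fold between the lowest and highest batch mean, 2.25, was the widest of the 10 genes. The SL/SS ratios were 0.830, 0.933 and 0.642, and the log2 fold change was -0.34 ± 0.41 (SE), or ± 0.12 with the block (interval -0.63 to -0.04, adjusted p = 0.166). The second *HYH* probe gave 1689, 3233 and 2278 in SS and 1491, 2561 and 1686 in SL, also lower in SL in 3 of 3 batches, with a log2 fold change of -0.32 and an adjusted p of 0.106 with the block. The size for *HYH* depended on single arrays. It was -0.69 without SS replicate 1, -0.15 without SS replicate 2, -0.16 without SS replicate 3, -0.01 without SL replicate 1 and -0.64 without SL replicate 2, and with the block it was -0.18 without pair 3.

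**Figure D1:**
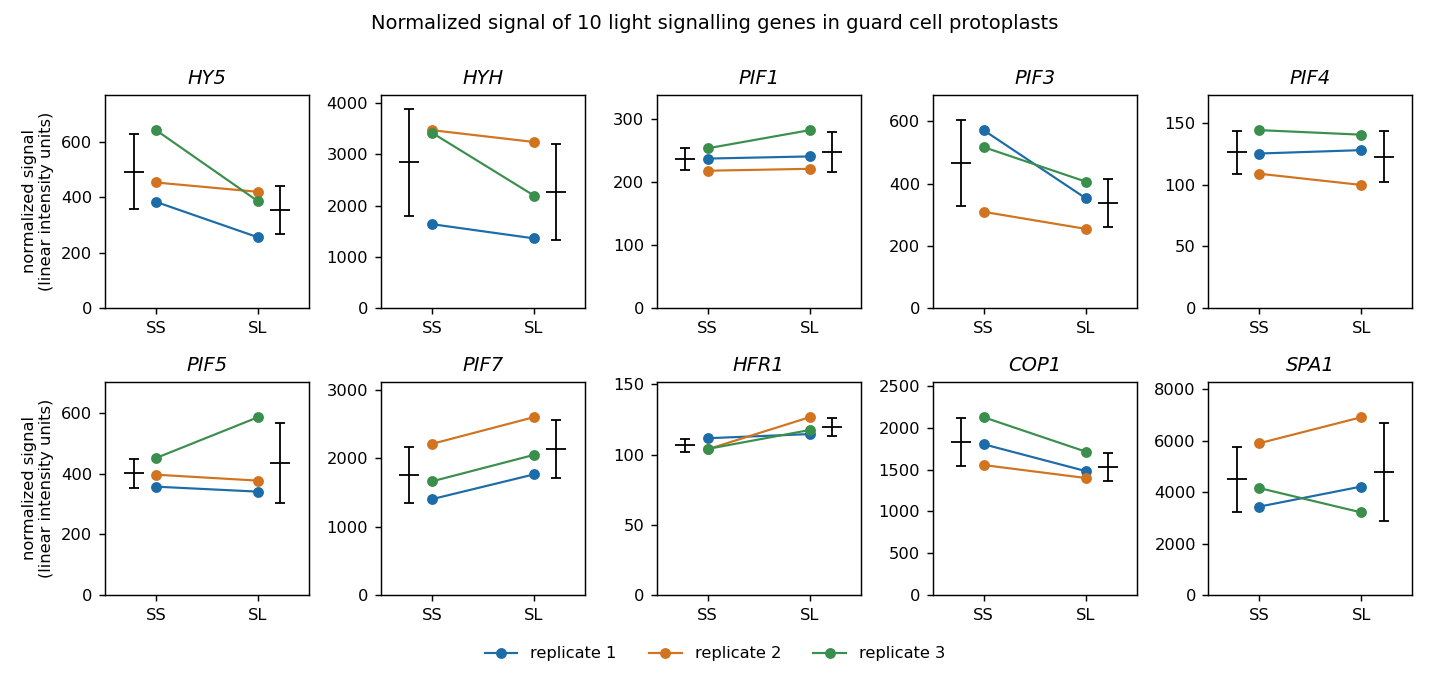
Normalized signal (linear intensity units, each panel with its own axis from 0) of the brightest probe of each gene in SS and SL. Coloured points joined by lines are the arrays of 1 batch, and black bars are means ± SD (n = 3). Lines of *HY5*, *HYH*, *PIF3* and *COP1* all point down, those of *PIF1*, *PIF7* and *HFR1* all point up, and only in *HFR1* do the 2 groups not overlap.

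Among the PIFs, *PIF3* was lower and *PIF7* higher in SL in every batch, while the SL/SS ratios of *PIF1*, *PIF4* and *PIF5* in single batches lay between 0.917 and 1.30. *PIF3* binds active phytochrome B and restrains greening in the dark. Its signal was 572, 309.5 and 518 in SS and 353, 255 and 407 in SL. Batch 2 was the lowest in both groups, and the SL values of batches 1 and 3 were above the SS value of batch 2, so that the groups overlapped. Means were 466 ± 139 and 338 ± 77.1 (SD, n = 3), and the SL/SS ratios were 0.618, 0.823 and 0.786. On the log2 scale the difference was -0.44 ± 0.29 (SE), and leaving out 1 array gave -0.27 (SS replicate 1), -0.71 (SS replicate 2) or -0.25 (SL replicate 2). With the block its interval was -0.70 to -0.18 and its adjusted p 0.0767, the lowest of the 10 genes.

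*PIF7*, which drives elongation in shade, had a signal of 1404, 2213 and 1664 in SS and of 1766, 2604 and 2052 in SL. Every SL array exceeded the SS array of its own batch, batch 2 was the highest in both groups, and the groups overlapped. The SL/SS ratios, 1.26, 1.18 and 1.23, were the closest to one another among the 10 genes (mean 1.22 ± 0.0418, SD, n = 3). This came to a log2 fold change of 0.29 ± 0.22 (SE), which was 0.14 without SS replicate 1 or SL replicate 2 and 0.47 without SS replicate 2. With the block the SE was 0.08, the interval 0.09 to 0.49 and the adjusted p 0.102. The second *PIF7* probe was likewise higher in SL in each batch, from 271, 452 and 222 in SS to 297, 505 and 278 in SL, with a log2 fold change of 0.20 and an adjusted p of 0.214 with the block.

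*PIF1*, which represses seed germination, gave 238, 218 and 254 in SS and 241, 221 and 283 in SL. SL was higher in all 3 batches, but by ratios of only 1.01, 1.01 and 1.11, and the groups overlapped. The interval of its log2 fold change with the block was -0.14 to 0.27 (estimate 0.07, adjusted p = 0.669). Its second probe lay close to background (94.2 to 107 over the 6 arrays) and had no common direction among the batches, with a log2 fold change of 0.03.

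*PIF4*, a promoter of growth in warmth and shade, gave 125, 109 and 144 in SS and 128, 99.9 and 141 in SL. Values of the same batch differed by less than those of different batches. Its log2 fold change was -0.04, with an interval of -0.25 to 0.16 with the block (adjusted p = 0.782). Its spot was dim, with a median pixel intensity of 83 to 126 over a local background of 29 to 40.

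*PIF5*, a close relative of *PIF4* with overlapping roles in growth and leaf senescence, gave 358, 397 and 452 in SS and 341, 378 and 587 in SL. Only batch 3 was higher in SL, and the groups overlapped. The log2 fold change was 0.08, with an interval of -0.20 to 0.36 with the block (adjusted p = 0.715). The second *PIF5* probe gave 121, 131 and 179 in SS and 141, 140.0 and 179 in SL and differed from the first in which batches were higher, so *PIF5* has no settled direction in these arrays.

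*HFR1*, an atypical bHLH protein that binds PIFs and keeps them from DNA, was the single gene whose groups did not overlap. Its signal was 112, 104 and 104 in SS and 115, 127 and 117 in SL. All genes with this property, in either direction, made up 8.22% of the 18001 genes tested. Means were 106 ± 4.45 and 119.5 ± 6.27 (SD, n = 3). The exact two-sided permutation test over arrays gave p = 0.1, the smallest that 3 arrays against 3 allow, and the methods' t-test gave an unadjusted P of 0.0423 and an adjusted P of 1. In limma the log2 fold change was 0.17 ± 0.12 (SE), with an interval of -0.05 to 0.38 and an adjusted p of 0.311 with the block. The probe was dim (median pixel intensity 83 to 108 over a local background of 29 to 46), and the size of its difference depended on the background correction. It was 0.34 on the log2 scale without the added offset of 50, 0.51 with processed intensities set to a common 75th percentile and 0.55 with the deposited matrix after quantile normalization, with adjusted p-values of 0.98 to 1 without the block. With the block, the processed intensities gave the same 0.51 with an adjusted p of 0.111, and leaving out pair 2 in the main setting gave 0.11.

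*COP1* had a signal of 1803, 1554 and 2126 in SS and 1482, 1399 and 1714 in SL. SL was lower in each batch, by ratios of 0.822, 0.90 and 0.807, and batch 2 was the lowest in both groups, which overlapped. Means were 1828 ± 287 and 1532 ± 163 (SD, n = 3). The log2 fold change was -0.25 ± 0.16 (SE), or ± 0.08 with the block, where the interval was -0.45 to -0.04 and the adjusted p 0.149. Leaving out SS replicate 3 gave -0.13 and leaving out SS replicate 2 gave -0.36. A level under 0.731 of that in SS lay outside that interval.

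*SPA1*, a partner of COP1 that was first found as a suppressor of *phyA* mutants, had a signal of 3437, 5898 and 4155 in SS and 4217, 6909 and 3209 in SL. Batches 1 and 2 were higher in SL (ratios 1.23 and 1.17) and batch 3 was lower (0.772), with overlapping groups. Together they gave a log2 fold change of 0.05, with an interval of -0.30 to 0.40 with the block (adjusted p = 0.864). *SPA1* and *COP1* were thus on opposite sides of SS in batches 1 and 2 and on the same side in batch 3.

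**Figure D2:**
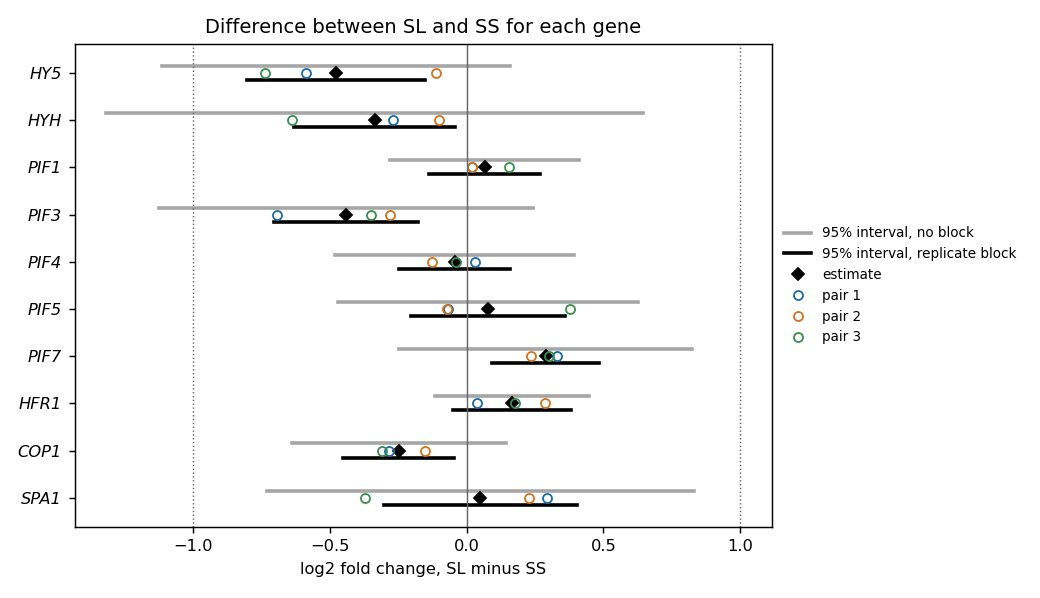
Log2 fold change of SL over SS for each gene (x axis), with the 95% interval of limma without a block (grey) and with the replicate block (black), and the 3 batches as open circles. Dotted lines mark 2-fold. With the block, the intervals of *HY5*, *HYH*, *PIF3*, *PIF7* and *COP1* leave out 0, none of the 10 intervals reaches a dotted line, and the *SPA1* circles lie on both sides of 0.

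As a group, 0 of 10 genes were called by limma at an adjusted p under 0.05, both without the block (background 0% of 18001 genes) and with it (background 4.72%). At an unadjusted p under 0.05 the counts were 0 without the block (background 3.72%) and 5 with it, namely *HY5*, *HYH*, *PIF3*, *PIF7* and *COP1* (background 25.5%). The methods' t-test called 1 at an unadjusted P, *HFR1* (background 4.27%), and 0 after adjustment (background 0%). Of the 10 genes, 4 were lower in SL in all 3 batches (background 24.4% of genes) and 3 were higher in all (background 24.6%). The median log2 fold change of the 10 was 0.0031, against 0.0093 for all genes.

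The intervals bound the differences more tightly than the calls do. With the block, the lowest bound was 0.573 of the SS level, for *HY5*, and the highest was 1.40, for *PIF7*, so that no interval reached 2-fold. Without the block, those of *HY5*, *HYH* and *PIF3* extended beyond 2-fold downwards, and the widest, that of *HYH*, began at -1.32 on the log2 scale. These are intervals for each gene by itself and for the main normalization only. Processed intensities set to a common 75th percentile gave larger log2 fold changes for *HY5* (-0.69) and *HFR1* (0.51), for which no interval is given.

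The range between batch means was set beside the difference between SL and SS. In 9 of 10 genes, all but *HFR1*, the range between batch means was greater than the difference between SL and SS, which also held for 88.2% of all genes. A range over 3 batch means tends to exceed a single difference even without batch effects. This count therefore does not show which source of variation was larger. The lowest batch was the same in SS and SL for 8 genes (background 71.5%), being batch 1 for *HY5*, *HYH*, *PIF5* and *PIF7* and batch 2 for *PIF1*, *PIF3*, *PIF4* and *COP1*. The highest batch was the same for 7 genes (background 67.5%), being batch 2 for *HYH*, *PIF7* and *SPA1* and batch 3 for *PIF1*, *PIF4*, *PIF5* and *COP1*. Batch 1 was hybridized on 1 slide and batches 2 and 3 on another, each slide holding both groups. Within the slides, the log2 fold changes were -0.59 and -0.42 for *HY5*, -0.69 and -0.31 for *PIF3*, -0.28 and -0.23 for *COP1*, 0.33 and 0.27 for *PIF7*, and 0.30 and -0.07 for *SPA1*.

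The genes around these factors were then counted, again with a single test over all probes. Without the block, limma called 0 genes in each of the groups below. Calls given here are from the fit with the block, in which 1.57% of all genes were called as higher and 3.14% as lower in SL. Leaving out batch 1 or batch 2 from that fit left 0 calls in each group.

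The machinery that works with COP1 was measured in full. Of 18 genes of the other SPA proteins, DET1 and its partners and the COP9 signalosome, all passed the filter, 1 was called as lower and 0 as higher, and the median log2 fold change was 0.02. The gene called was *SPA3*, whose signal was 1641, 1680.1 and 3400 in SS and 1067, 1204 and 1445 in SL. All SL arrays lay below all SS arrays, and the log2 fold change was -0.78 with an adjusted p of 0.0499, just inside the threshold. *SPA4* was also lower in each batch (-0.44, adjusted p = 0.154), while *SPA2* had a log2 fold change of 0.62 with batches on both sides (adjusted p = 0.201). Another *SPA2* probe stood at 0.41, also with batches on both sides, and a further one at 0.22, higher in each batch (adjusted p = 0.183 and 0.214). *DET1* and *CSN5A*, the latter the catalytic subunit of the signalosome, stood at -0.06 and 0.18 (adjusted p = 0.782 and 0.252). The estimates of the *SPA* genes had both signs, and only *SPA3* passed the threshold.

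Other transcription factors of light signalling gave 5 of 9 genes for testing and 0 calls, at a median log2 fold change of -0.01. *FHY3* and *FAR1*, transposase-derived activators in phytochrome A signalling, stood at 0.00 and -0.30 (adjusted p = 0.986 and 0.142), and *PIF8*, a further PIF, at -0.01 (adjusted p = 0.972). The remaining genes were not all detectable, since 3 were well above background on 0 arrays.

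Known PIF-induced targets numbered 13, of which 8 could be tested, and they gave 1 call as higher and 0 as lower at a median log2 fold change of 0.13. The gene called was the cytokinin oxidase gene *CKX5*, with a signal of 2335, 2735 and 3874 in SS and 4924, 6169 and 6129.8 in SL. All SL arrays lay above all SS arrays, and the log2 fold change was 0.97 with an adjusted p of 0.0188. The study had itself listed this gene for its increase on these arrays, so it is not independent evidence for the group. *ATHB2*, a shade-induced homeodomain gene, was higher in each batch, with 474, 638 and 469.7 in SS and 638, 805 and 769.7 in SL, but the groups overlapped narrowly and the adjusted p was 0.0548 (log2 fold change 0.49). *IAA19*, an auxin-response repressor, stood at 0.17 (adjusted p = 0.705), and the shade marker genes *PIL1* and *IAA29* did not pass the filter, being well above background on 3 and 0 arrays.

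Of 11 HY5-induced targets, 10 could be tested, and 1 was called as lower and 0 as higher at a median log2 fold change of -0.05. The flavonol synthase gene *FLS1* had a signal of 3217, 3113 and 3192 in SS and 2214, 2214 and 2517 in SL. The groups did not overlap, and the log2 fold change was -0.46 with an adjusted p of 0.0445. The other named targets did not pass the test. The chalcone synthase gene *CHS* stood at -0.05, *MYB12*, an activator of flavonol genes, at 0.01, *ELIP1*, a stress-induced light-harvesting-like protein, at 0.09, and *RUP2*, a repressor of the UV-B receptor, at -0.29 (adjusted p = 0.371 to 0.976).

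**Figure D3:**
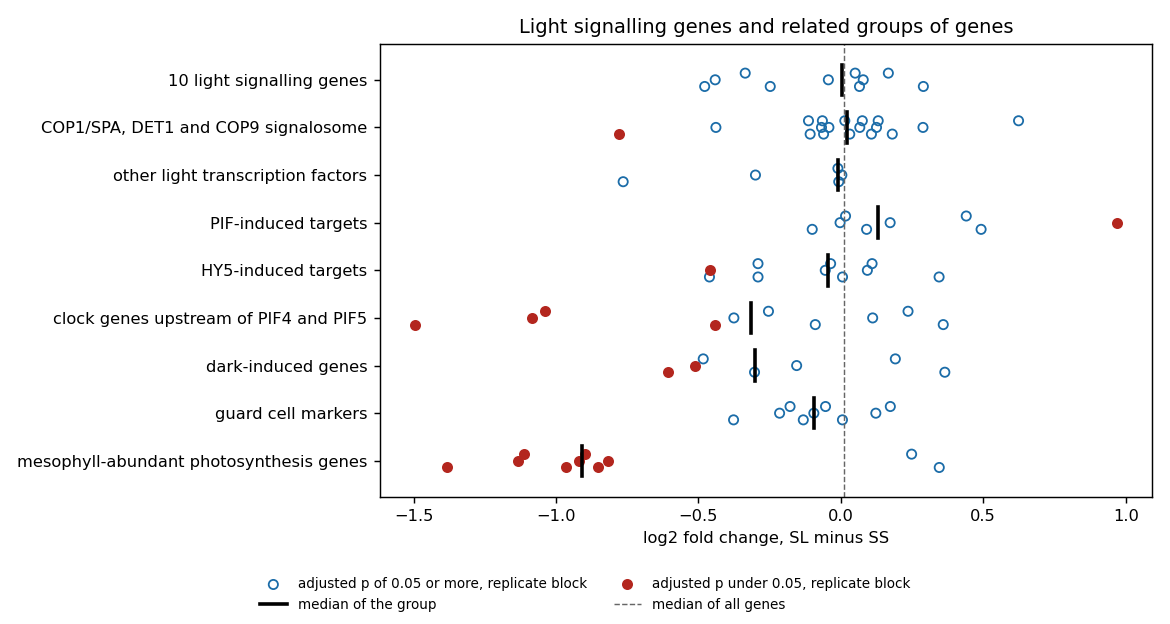
Log2 fold change of SL over SS (x axis) for the 10 light signalling genes and for groups of related and marker genes (rows), 1 point for each gene tested. Filled points had an adjusted p under 0.05 with the replicate block, black bars are group medians and the dashed line is the median of all genes. The 10 genes hold no filled point, and the most filled points are in the photosynthesis genes, 8 of 10.

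Clock genes that act upstream of *PIF4* and *PIF5* held more calls. Of 10 genes, 4 were called as lower and 0 as higher, at a median log2 fold change of -0.31. The morning genes *CCA1* and *LHY* stood at -1.50 and -1.04 (adjusted p = 0.0086 and 0.0262), the pseudo-response regulator gene *PRR9* at -1.08 (adjusted p = 0.0272) and *LUX*, a DNA-binding member of the evening complex, at -0.44 (adjusted p = 0.0477). Another *CCA1* probe stood at -0.68, lower in each batch, and a second *LUX* probe at -0.02. *PRR9* was well above background on 5 arrays only, so it entered the tests through a single group. Its signal was 162, 325 and 190 in SS and 96.3, 109 and 100 in SL, where it lay close to background. The call of *PRR9* thus depends on the filter and carries less weight than the other calls. *ELF3*, the scaffold of the evening complex, which represses *PIF4* and *PIF5*, had 2089, 1686 and 2357 in SS and 2047, 1844 and 1824 in SL (-0.09, adjusted p = 0.672), and *TOC1*, an evening repressor, was at 0.36 and higher in each batch (adjusted p = 0.126). *PIF4* and *PIF5* themselves, at -0.04 and 0.08, were not called. The isolation times in the labels also differ between the groups, and their part in the values of the clock genes was not tested.

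Genes that are induced by darkness were counted because the paper's isolation time would place SS plants in the night. Of 9 such genes, 7 could be tested, with 2 called as lower in SL, 0 as higher and a median log2 fold change of -0.30. These were *DIN3* and *DIN4*, subunits of the complex that breaks down branched-chain keto acids, at -0.61 and -0.51 (adjusted p = 0.0365 and 0.041). *DIN3* gave 2711, 1069 and 2694 in SS and 1523, 790.5 and 1832 in SL, and its groups overlapped through the low values of batch 2. *DIN9*, looked up after the values were seen, was higher in SL in each batch (log2 fold change 0.36, adjusted p = 0.0684).

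**Figure D4:**
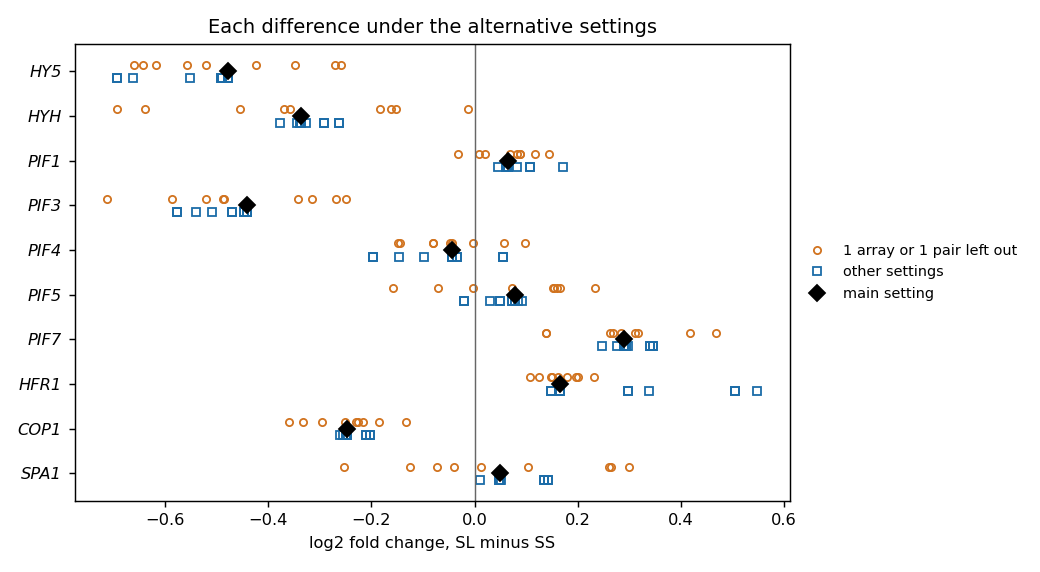
Log2 fold change of SL over SS (x axis) of each gene in the main setting (diamonds), with 1 array or 1 pair left out (circles) and under the other settings (squares). *HY5*, *HYH*, *PIF3* and *COP1* stay below 0 and *PIF7* and *HFR1* above 0 throughout, whereas *PIF1*, *PIF4*, *PIF5* and *SPA1* have points on both sides.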

How the data were processed

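GCP gene expression from SS and SL plants (3 arrays each, grouped by label) was analysed. Per the file headers, the authors extracted single-colour scans with Agilent Feature Extraction 11.5.1.1. Intensity values as deposited are the median pixel and median local background intensity of each spot and a background-subtracted processed intensity, which the series matrix repeats in all 45220 rows. None was normalized between arrays.

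Median intensities were corrected by normexp (offset 50) and quantile-normalized over the 6 arrays in R 4.3.3 with limma 3.58.1. An offset raises all signals and draws the log2 fold changes of dim probes towards 0. Control and flagged spots (3 to 7 per array) were left out. No spot was saturated. A probe entered the tests if SS or SL had it well above background on each of its 3 arrays (28852 of 43603), and a gene was represented by its brightest kept probe (18001 genes). Between 28468 and 30826 probes per array were well above background, fewest in SL replicate 2, and the number of arrays limits the precision. Identifiers of the probes were looked up in a RefSeq table, which placed 78.8% of them. That table is of another assembly than the TAIR10 of the array files, so no coordinates are given, and no sequence was used here.

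The main test was limma without a block, with Benjamini-Hochberg adjustment over all probes kept. Alternatives were the replicate number or slide as a block, other background corrections, normalizations and filters, the methods' t-test (unpaired and two-sided, run on linear signals) and leaving out arrays. The fits were tested on simulated data. The replicate numbers pair the samples, since each of the 3 experiments used its own batch of plants according to the series description. Same-numbered SS and SL arrays deviated together (correlation over probes 0.71, 0.855 and 0.739). Values were first centred on the mean of each group. Positive correlations for same numbers therefore force those of other SS and SL arrays (-0.58 to -0.161) below 0 on average. The latter are no separate support for the pairing.

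The 10 genes and the lists were chosen with earlier results of these data known. Named were all 10 genes, list genes picked for their role (the other SPA genes, DET1, CSN5A, PIF8, FHY3, FAR1, PIL1, ATHB2, IAA29, IAA19, CHS, ELIP1, MYB12, RUP2, ELF3, LUX, CCA1 and TOC1), list genes called with the block, and the 3 genes most alike to HY5, PIF4 and COP1. Other assays of the study (RNA-seq, qRT-PCR, ChIP) were not used here.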

Additional observations from a re-analysis of the deposited data

How the results depend on the processing

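Calls among the 10 light signalling genes were 0 under every alternative run except the methods' t-test at an unadjusted P, which called 1. Of 220 recomputed log2 fold changes, 206 kept their direction and 14 turned. Many of the 206 could not turn, because adding the replicate or slide block or changing the filter left the estimate as it was. A normalization run with and without the block gave the same estimate and was counted under each. The count is therefore no measure of stability. Leaving out SL replicate 3 turned *PIF1* to -0.032 (range over left-out arrays -0.032 to 0.14). *PIF4* turned to 0.055 with normexp values scaled to the 75th percentile (with the replicate block too), to 0.057 without SS replicate 3, and to 0.098 without SL replicate 2 (range over left-out arrays -0.15 to 0.098). *PIF5* turned to -0.020 with processed intensities set to a common 75th percentile (with the block too), to -0.0031 without SS replicate 1, to -0.16 without SL replicate 3 and to -0.070 with the block without pair 3 (range -0.16 to 0.23). *SPA1* turned to -0.13 without SS replicate 1, to -0.25 without SL replicate 2, and with the block to -0.072 without pair 1 and -0.039 without pair 2 (range -0.25 to 0.30). The cause was not tested.

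The replicate block changed no call of the 10 genes but called 1297 probes instead of 0, and it accounts for all calls in the related groups, which were 1 for the COP1, SPA and signalosome genes, 1 for PIF targets, 1 for HY5 targets, 4 for clock genes and 2 for dark-induced genes. With the block, leaving out a pair gave 0 to 2609 probes (51 without pair 1, 0 without pair 2 and 2609 without pair 3), and 0 to 2, 0 to 1, 0 to 1, 0 to 2, 0 to 5 and 0 to 2 genes for COP1, SPA and signalosome genes, other light transcription factors, PIF targets, HY5 targets, clock genes and dark-induced genes. With the block, processed intensities set to a common 75th percentile gave 452 probes, 1 PIF target, 1 HY5 target and 2 clock genes, normexp values scaled to the 75th percentile gave 47 probes and 1 clock gene, and quantile normalization by slide gave 1091 probes, 1 PIF target, 3 clock genes and 2 dark-induced genes. The share of the block's calls that were lower in SL was 70.2% in the main normalization and 77.9%, 78.7% and 71.1% in these 3, 88.2% without pair 1 and 53.2% without pair 3. The methods' t-test called 1365 probes at an unadjusted P and 0 after adjustment. *PIF4*, *HFR1* and the second probes of *PIF1* and *PIF3* were dim. All but the second *PIF3* probe passed the scanner's flag for well above background on 6 arrays, but by a small margin, and the differences of *PIF4* and *HFR1* moved with the background correction. Those of *HY5* and the brightest *PIF3* probe also moved, from -0.48 to -0.69 and from -0.44 to -0.58 with processed intensities set to a common 75th percentile.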

Other observations

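The genes whose signal was most like that of a light signalling gene over the 6 arrays were listed for *HY5*, *PIF4* and *COP1* among 18001 genes, by Pearson's r of log2 signals, as a description only. Same-numbered SS and SL arrays share a batch of plants and a slide, and the part of either in these patterns was not tested. For *HY5* they were AT1G07830 (r = 0.997), *PP7* (0.992), a phosphatase gene, and AT1G15810 (0.989), and 139 genes had r over 0.9. For *PIF4* they were AT2G35470 (0.999), AT1G14470 (0.998) and AT3G54000 (0.997), and 957 genes had r over 0.9. For *COP1* they were AT2G21530 (0.997), *IMPL1* (0.997), an inositol monophosphatase-like gene, and AT1G07175 (0.995), and 952 genes had r over 0.9.

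Among the light transcription factors, *PAR2*, whose product is an atypical bHLH protein that restrains shade responses, had one of the larger differences between batches. It was taken up after its values were seen. Its signal was 7729, 3521 and 13304 in SS and 6172, 1936 and 6182 in SL, so that SL was lower in each batch and batch 2 was the lowest in both groups. The log2 fold change was -0.76 ± 0.62 (SE) and, with the block, ± 0.15 with an adjusted p of 0.0517.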
